A study of Mus musculus with 18 samples.

Results

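The replication-dependent histone genes were followed in cultures of primary mouse Leydig cells, which make testosterone in the testis. They were taken by symbol (H1f1 to H1f6, numbered H2ac, H2bc, H3c and H4c genes, H4f16, and genes still under an older Hist symbol), which gave 67 of the 55487 genes in the count table. By class these were 6 H1, 19 H2A, 17 H2B, 12 H3 and 13 H4 genes. Every culture had been transfected with siRNA, either siprdx1 or the control siNC. The siprdx1 siRNA targets Prdx1, the gene of a peroxidase that removes H2O2. The siprdx1+H2O2+FV and siNC+H2O2+FV cultures had 200 µM H2O2 for 30 min, followed by 6 h in 5 µM of the statin fluvastatin (FV). The siprdx1+H2O2 and siNC+H2O2 cultures had the same H2O2 and then 0.1% DMSO for 6 h, and the siprdx1 and siNC cultures had DMSO alone. No DMSO is given for the fluvastatin cultures, no culture had fluvastatin without H2O2, and each of the 6 groups had 3 libraries. The labels call these biological replicates but do not say that they came from separate animals, so p-values measure the spread between these libraries.

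Histones package DNA into nucleosomes. H3 and H4 form the inner tetramer, H2A and H2B add a dimer on each side, and the linker histone H1 binds where DNA enters and leaves. The replication-dependent genes lie mostly in clusters, as a rule have no introns and are transcribed in S phase, when new DNA needs new histones. Their mRNA usually ends just after a stem-loop in place of a poly(A) tail. SLBP binds the stem-loop, the transcript is cut just after it with the help of U7 snRNA, and the mRNA is degraded when replication stops. Some of these genes can also read past the stem-loop to a poly(A) site, which gives a polyadenylated mRNA, above all in cells that have left the cell cycle. The libraries here were made from polyadenylated RNA, so the values refer to histone transcripts that such a selection recovers and not to the whole histone mRNA pool.

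Of the 67 genes, 56 lie on chromosome 13, 10 on chromosome 3 and 1 (H4f16) on chromosome 6. A 16-base histone stem-loop (a stem arm of GG, 2 pyrimidines and CT, a loop of 4 bases, and an arm of AG, 2 purines and CC) was found in the annotated transcript of 44 of them. Those of the members that the results below turn on are given 5′ to 3′, as DNA letters from GENCODE M21 transcripts, with the 16 bases of stem and loop in capitals:
H1f2: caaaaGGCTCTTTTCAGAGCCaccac
H1f3: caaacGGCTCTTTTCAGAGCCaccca
H1f4: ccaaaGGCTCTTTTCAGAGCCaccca
H2ac6: ccaaaGGCTCTTTTCAGAGCCcccac
H2bc6: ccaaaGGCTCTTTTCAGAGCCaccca
H3c4: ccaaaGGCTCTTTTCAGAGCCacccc
H3c15: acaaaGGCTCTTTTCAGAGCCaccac
H4c9: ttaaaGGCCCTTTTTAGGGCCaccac
H4c14: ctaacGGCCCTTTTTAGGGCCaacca
H4f16: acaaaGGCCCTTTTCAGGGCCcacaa
The core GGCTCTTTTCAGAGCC, shared by the H1, H2A, H2B and H3 genes shown, occurred in 24 of the 44. H4f16 has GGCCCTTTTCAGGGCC, found in 7, and H4c9 and H4c14 are the 2 genes with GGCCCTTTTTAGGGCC. No such stem-loop was found in the annotated transcripts of H1f5, H2bc4 and H2bc21. For H1f5 the annotated model is short, with 743 bases. The 1 annotated transcript of H2bc4 is spliced, as are 2 of the 3 of H2bc6.

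Few of these genes were read often enough to be tested. Of the 67, 4 were listed at 0 in every library (H2ac1, H2ac18, H2bc18 and H3c14), and 18 passed the low-count filter: 4 H1, 2 H2A, 6 H2B, 2 H3 and 4 H4 genes. The 49 that did not pass held 1217 of the 82518 counts on histone genes, with a median of 18 counts over all 18 libraries and at most 87. H1f2 alone held 59.7% of the histone counts, H2bc4 25.5% and H2bc21 5.20%. Levels are given as CPM, the count scaled by library total and TMM factor, a scaling that sets most genes level between libraries. Per kb of exon over all 18 libraries the level was highest for H1f2 (84.8 CPM per kb) and H2bc4 (48.4 CPM per kb). H2bc21 (4.34), H4c9 (4.05) and H3c15 (2.21 CPM per kb) came next, and the lowest of the 18 was Hist1h2bq at 0.198 CPM per kb.

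The tested genes were mostly those whose annotated transcript runs on past the stem-loop. They were also longer, with a median longest transcript of 1595 bases, against 480 bases in the genes not tested. The filter works on counts, and a longer transcript can collect more reads. Length and the run past the stem-loop thus cannot be told apart here. Among the 18, the transcript continued for at least 300 bases after the stem-loop in 11, against 6 of the 49 genes that were not tested. The median run was 996.5 bases over the 14 tested genes with a stem-loop, and 40 bases over the 30 others. It was 840 bases for H1f2, 2445 for H4f16, 1861 for H2bc6, 330 for H4c9 and 4884 bases for H1f3. An AATAAA or ATTAAA within the last 40 bases was present in 7 of the 18 and 6 of the 49. The tested genes also had fewer near-copies: 3 of the 18, against 23 of the 49, shared at least 50% of their 100-base windows with other genes. Reads of such genes may be split between copies or dropped, and how the counting treated them is not given in the sources used here.

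**Figure D1:**
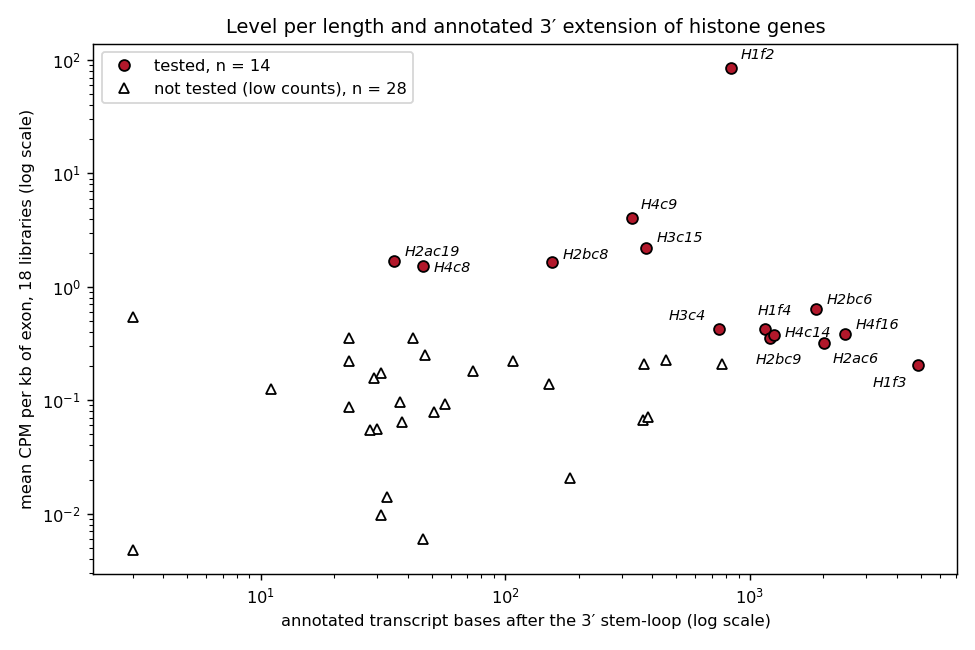
Mean CPM per kb of exon over 18 libraries (log scale) against the annotated transcript bases after the stem-loop (log scale) for the 42 histone genes with a stem-loop and at least 1 count. The 14 tested genes (filled circles) lie mostly to the right and above the 28 others (triangles), and H1f2 stands highest at 84.8 CPM per kb. Tested genes were kept for their counts, so their place above the others is in part set by the filter.

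Sequence shared with other genes limits some values. H1f4 and H2bc6 share 496 exon bases on the same strand, 25.7% of H1f4's exons and 11.2% of H2bc6's, so reads there cannot be given to one of them. Each also shares 320 exon bases with the gene model Gm11398 on the same strand (16.6% of H1f4's exons and 7.2% of H2bc6's). H3c15 shares 61.6% of its windows with other genes, H3c14 and H3c13 among them, H2bc8 shares 44.9% and H2bc4 25.4%, so their values are uncertain as those of single genes. H2ac19 (100%) and Hist1h2bq (94.6%) are copies almost throughout, and H2ac19 also lies wholly within an antisense gene model. H2ac6 shares 108 exon bases (4.35%) with the gene model Gm24991 on the same strand and 138 (5.56%) with an antisense gene model. H1f2 (5.07%), H1f3 (0.792%) and H4f16 (4.34%) share little, and H1f5, H2bc21 and H4c14 share no window.

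Library totals ranged from 15201530 to 23898435 counts. Prdx1 lay at 426 to 576 CPM in the 9 siprdx1 libraries and at 1278 to 1689 CPM in the 9 siNC libraries, with log2 fold changes of -1.52, -1.64 and -1.47 (SE 0.06 each) in untreated, H2O2 and H2O2 plus fluvastatin cultures. Of 8 Leydig markers 6 were expressed enough to be tested, with a summed level of 911 to 1434 CPM per library, beside 15009 to 19608 CPM for 6 fibroblast markers and 6890 to 8950 CPM for 8 macrophage markers, so transcripts of other cell types were present. In bulk RNA, fewer cells of a type and less RNA per cell cannot be told apart. Germ cells carry their own histones: 12 of 14 germ cell markers averaged below 0.1 CPM, and the testis histone genes H1f6, H2bc1 and H2ac1 had 7, 1 and 0 counts over all libraries. Of the 14 markers 1 was expressed enough to be tested, and all 14 summed to 22.6 to 31.8 CPM per library. Library sets are given below in replicate order, and log2 fold changes with ± SE from edgeR's quasi-likelihood test, whose p-values were adjusted over all 16432 genes tested (n = 3 libraries per group). A gene that passed, or was called, had an adjusted p below 0.05.

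H2O2 came with higher levels of histone genes in both siRNA arms, from H1f2, the highest per kb, to H4f16, which had few counts without it. In siprdx1 cells 6 of the 18 tested genes rose and 0 fell, where 2.48% of all genes tested were called higher, 5.39% lower and 7.87% in either direction. In siNC cells 9 of 18 rose and 0 fell, where 2.36% of all genes were called higher, 4.59% lower and 6.95% in either direction. At an unadjusted p below 0.05, 7 genes were higher in siprdx1 and 11 in siNC and 0 were lower in either arm, and limma voom and DESeq2 also called 0 lower. Scaled by library size alone, the calls over all genes in siprdx1 were 234 higher and 1132 lower, in place of 407 and 886. The genes called in both arms were H1f2, H1f4, H2bc4, H2bc21, H4c9 and H4f16. The median log2 fold change of the 18 was 0.38 in siprdx1 and 0.48 in siNC, beside 0.02 and 0.01 over all genes. Because the filter may keep a gene for the group in which it is high, these counts describe the 18 genes and not the 67. A filter blind to the groups kept 17 of the 18 and gave the same counts of calls. It left out only Hist1h2bq (mean 0.398 CPM), which passed in no comparison, so these counts could hardly change. It works on the mean over all libraries, so it too may keep a gene for the group in which it is high. Of the marker lists, 3 of 6 fibroblast markers rose in siprdx1 and 2 of 8 macrophage markers in siNC, while 0 of 6 tested Leydig markers changed in either arm, and the part of these in the histone values was not tested.

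Among the H1 genes, H1f2 (linker histone H1.2) had 105, 115 and 109 CPM in siprdx1+H2O2 cultures, against 86.5, 89.1 and 89.7 CPM in siprdx1 cultures, a log2 fold change of 0.31 ± 0.05 (adjusted p = 0.000293). It had 116, 112 and 120.4 CPM in siNC+H2O2, against 92.0, 87.5 and 92.1 CPM in siNC, a log2 fold change of 0.36 ± 0.05 (adjusted p = 6.05e-05). All 6 H2O2 libraries lay above all 6 libraries without it. H1f4 (linker histone H1.4) had 0.748, 0.623 and 0.896 CPM in siprdx1+H2O2, against 0.103, 0.296 and 0 CPM in siprdx1, and 1.63, 1.00 and 1.68 CPM in siNC+H2O2, against 0.274, 0.437 and 0.379 CPM in siNC. Its log2 fold changes were 2.29 ± 0.53 (adjusted p = 0.00789) and 1.97 ± 0.40 (adjusted p = 0.00366), with no overlap of groups in either arm. The siprdx1 values of H1f4 rest on 2, 7 and 0 counts, and without siprdx1 replicate 2 the log2 fold change was 3.61. H1f5, another linker histone, did not pass in either arm.

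The H2A gene H2ac6, which encodes a core histone of the H2A-H2B dimer, had 1.63, 1.21 and 1.55 CPM in siNC+H2O2, against 0.228, 0.437 and 0.421 CPM in siNC, a log2 fold change of 1.99 ± 0.39 (adjusted p = 0.0024). In siprdx1 it had 0.598, 1.04 and 1.06 CPM in siprdx1+H2O2, against 0.465, 0.296 and 0.5 CPM in siprdx1. These groups did not overlap either, but the difference (1.14 ± 0.41, adjusted p = 0.101) did not pass. The H2B gene H2bc6 had 4.78, 4.49 and 5.22 CPM in siNC+H2O2, against 2.42, 1.44 and 2.19 CPM in siNC, a log2 fold change of 1.26 ± 0.19 (adjusted p = 0.000156). It had 2.14, 2.08 and 2.77 CPM in siprdx1+H2O2, against 1.91, 1.86 and 1.87 CPM in siprdx1, which differed by 0.31 ± 0.21 (adjusted p = 0.432). The 3 siNC+H2O2 libraries of H2bc6 were the highest of all 18 libraries. The difference between arms in the H2O2 effect on H2bc6 was -0.95 ± 0.29 and did not pass (adjusted p = 0.331).

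H2bc21 and H2bc4, the 2 tested H2B genes with the highest CPM per kb, were called in both arms. H2bc21 had 15.7, 14.8 and 13.9 CPM in siprdx1+H2O2, against 10.3, 9.60 and 9.50 CPM in siprdx1, and 14.6, 13.6 and 11.6 CPM in siNC+H2O2, against 9.35, 11.6 and 9.69 CPM in siNC. Its log2 fold changes were 0.59 ± 0.11 (adjusted p = 0.00097) and 0.37 ± 0.11 (adjusted p = 0.0396), the second with groups that touch, since siNC replicate 2 lay level with siNC+H2O2 replicate 3. H2bc4 had 49.8, 57.4 and 58.4 CPM in siprdx1+H2O2, against 40.9, 49.2 and 47.8 CPM in siprdx1, and 57.5, 59.2 and 62.5 CPM in siNC+H2O2, against 53.8, 48.1 and 48.8 CPM in siNC, which differed by 0.26 ± 0.08 (adjusted p = 0.0358) and 0.25 ± 0.08 (adjusted p = 0.0493). The groups of H2bc4 stood apart by little in both arms, between 49.2 and 49.8 CPM in siprdx1. Without siprdx1 replicates 1 or 3, or siprdx1+H2O2 replicates 2 or 3, the siprdx1 call of H2bc4 was lost (adjusted p 0.0575 to 0.201). Its siNC call was lost when replicate 2 or 3 of siNC, or any one of siNC+H2O2, was left out (0.0822 to 0.185), and that of H2bc21 when replicate 1 or 3 of siNC, or 1 or 2 of siNC+H2O2, was left out (0.108 to 0.199).

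H4f16, a histone H4 gene outside the clusters (chr6:136801553-136804415, minus strand, GRCm38), had the largest log2 fold change of the 18 in both arms. It had 2.34, 1.41 and 2.97 CPM in siprdx1+H2O2, against 0.103, 0.0846 and 0.187 CPM in siprdx1, and 2.19, 1.64 and 3.32 CPM in siNC+H2O2, against 0.0456, 0.262 and 0.169 CPM in siNC. Every H2O2 library had at least 31 counts, while the libraries without H2O2 had 2, 2 and 3 in siprdx1 and 1, 6 and 4 in siNC. Its log2 fold changes were 4.17 ± 0.49 (adjusted p = 3.58e-06) and 3.86 ± 0.44 (adjusted p = 3.34e-06), and the difference between arms did not pass (adjusted p = 1). The lowest log2 fold change of H4f16 without any one library was 3.90 in siprdx1 and 3.45 in siNC.

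H4c9 had 2.94, 3.74 and 4.07 CPM in siprdx1+H2O2, against 1.60, 1.69 and 2.06 CPM in siprdx1, a log2 fold change of 1.02 ± 0.21 (adjusted p = 0.00341). In siNC it had 3.20, 4.54 and 3.41 CPM in siNC+H2O2, against 1.96, 2.01 and 2.95 CPM in siNC, and 0.68 ± 0.20 (adjusted p = 0.0443). H4c14 had 0.955, 1.06 and 0.647 CPM in siNC+H2O2, against 0.319, 0.306 and 0.379 CPM in siNC, a log2 fold change of 1.37 ± 0.36 (adjusted p = 0.0211), while its siprdx1 difference of 0.65 ± 0.35 (adjusted p = 0.305) did not pass. The siNC calls of both were lost when replicate 1 or 2 of either group was left out, that of H4c9 also without siNC+H2O2 replicate 3 and that of H4c14 also without siNC replicate 3 (adjusted p 0.0539 to 0.192). The count of 9 genes in siNC was 5 to 7 with any one of these 6 libraries left out, and 5 without siNC+H2O2 replicate 1. H3c15, of the H3 class, stood higher in all H2O2 libraries of both arms (1.64, 2.03 and 1.63 CPM in siprdx1+H2O2, against 1.34, 1.40 and 1.62 CPM in siprdx1, and 1.97, 2.54 and 3.49 CPM in siNC+H2O2, against 1.73, 1.70 and 1.56 CPM in siNC), but passed in neither (adjusted p = 0.573 and 0.0872).

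**Figure D2:**
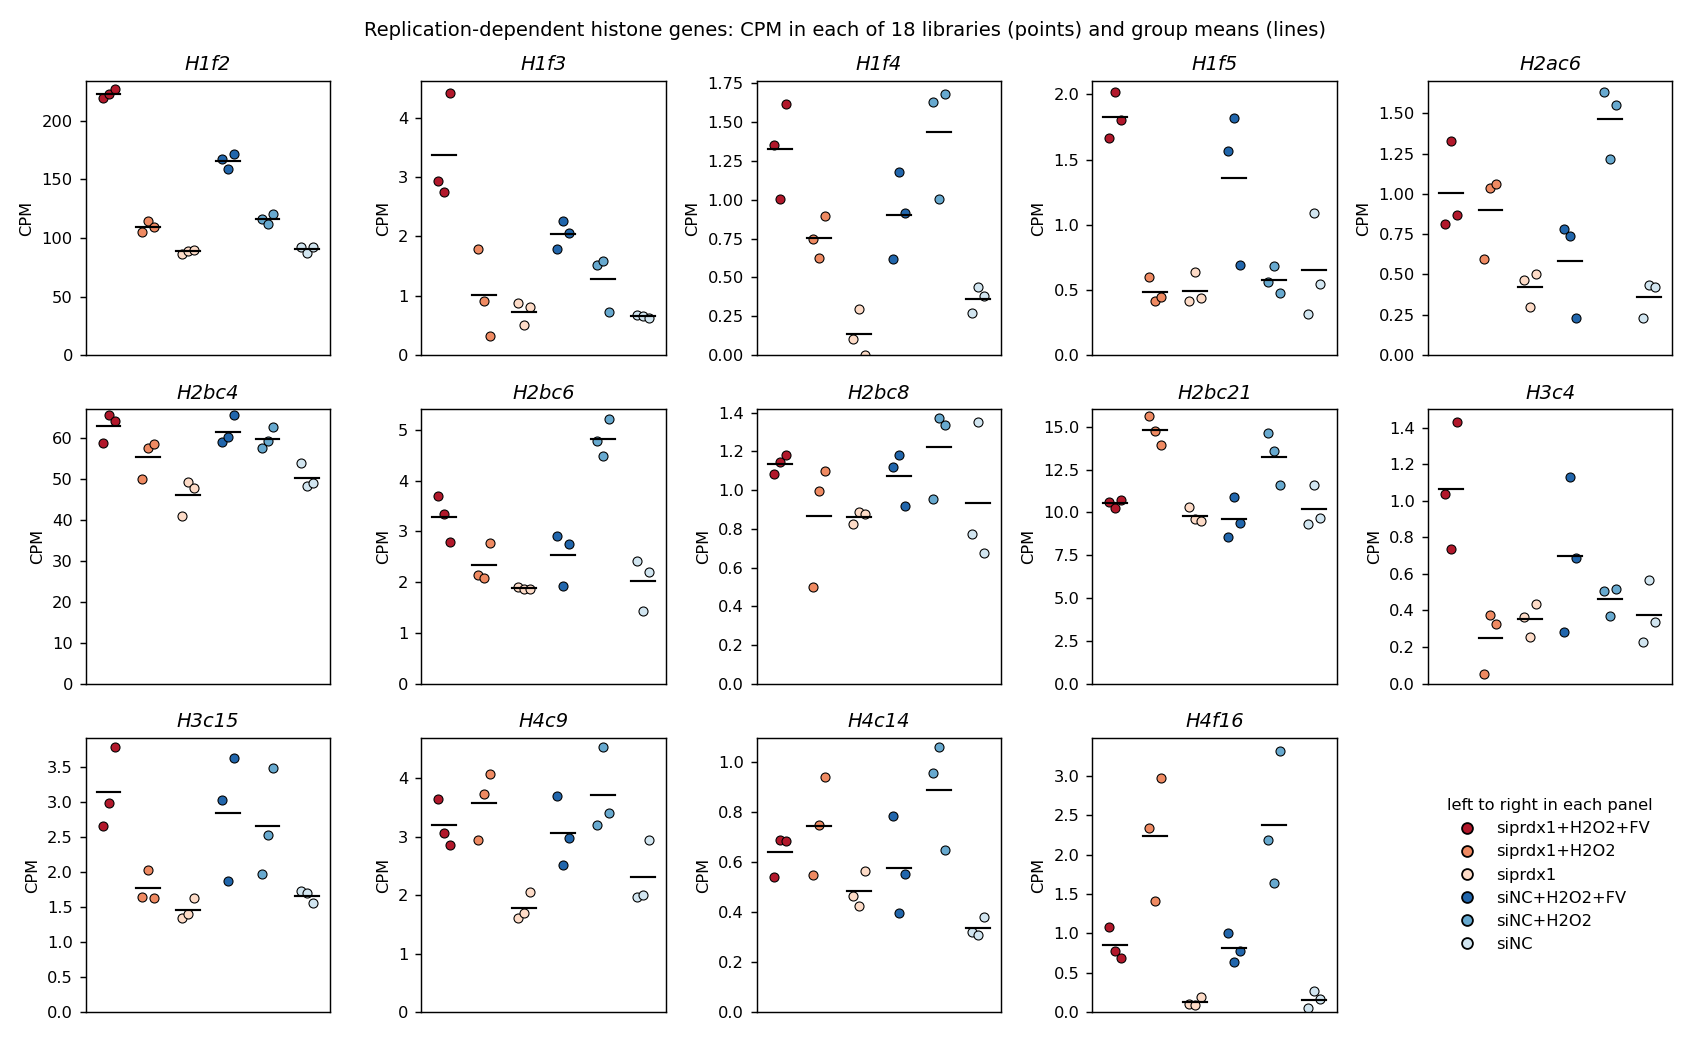
CPM of 14 histone genes in each of the 18 libraries (points) with group means (lines), groups running left to right from siprdx1+H2O2+FV to siNC, each panel on its own axis from 0. H4f16 is at 1.41 to 3.32 CPM in the 6 H2O2 libraries and at most 0.262 CPM in the 6 without H2O2, and H1f2 is highest in siprdx1+H2O2+FV at 219.6 to 227 CPM.

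Histone genes were called in both directions with fluvastatin after H2O2, as all genes were: the linker histone genes H1f2 and H1f5 rose in both arms and 2 H3 genes in siprdx1, while H4f16 and H2bc21 fell in both. In siprdx1 cells 5 of 18 rose (H1f2, H1f3, H1f5, H3c4 and H3c15) and 2 fell (H2bc21 and H4f16), where 12.6% of all genes were called higher, 11% lower and 23.6% in either direction. In siNC cells 2 rose (H1f2 and H1f5) and 4 fell (H2ac6, H2bc6, H2bc21 and H4f16), where 13.5% of all genes were called higher, 11.3% lower and 24.9% in either direction. Of the 18 tested members, the 2 lower in siprdx1 and the 2 higher in siNC come to about the shares of all genes. Scaled by library size alone, the median of all genes moved to -0.11 in both arms. The calls over all genes were then 1463 higher and 3634 lower in siprdx1, in place of 2066 and 1810, and 1474 higher and 3835 lower in siNC, in place of 2226 and 1864, but the same 7 and 6 histone genes were called. Of 5 smooth muscle markers 4 rose with fluvastatin in each arm, and their summed level was 1852 to 2318 CPM in the fluvastatin libraries and at most 1377 CPM in the others. The Leydig markers summed to 1271 to 1434 CPM in the fluvastatin libraries and at most 1106 CPM in the others, with 2 of 6 higher in siprdx1 and 1 higher and 2 lower in siNC. Of 8 macrophage markers 2 rose in siprdx1, and 1 rose and 3 fell in siNC, and of 6 fibroblast markers 2 fell in siprdx1 and 1 in siNC. The part of these in the histone values was not tested. The comparisons of fluvastatin and of H2O2 share the H2O2 libraries and are not independent of each other.

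H1f2 had 219.6, 223 and 227 CPM in siprdx1+H2O2+FV, against 105, 115 and 109 CPM in siprdx1+H2O2, a log2 fold change of 1.03 ± 0.05 (adjusted p = 1.5e-13). It had 167, 159 and 172 CPM in siNC+H2O2+FV, against 116, 112 and 120.4 CPM in siNC+H2O2, a log2 fold change of 0.51 ± 0.05 (adjusted p = 4.16e-08). The 3 siprdx1+H2O2+FV libraries were the highest of all 18 and the 3 siNC+H2O2+FV libraries came next. H1f3 (linker histone H1.3) had 2.93, 2.75 and 4.42 CPM in siprdx1+H2O2+FV, against 1.79, 0.913 and 0.326 CPM in siprdx1+H2O2, a log2 fold change of 1.76 ± 0.36 (adjusted p = 0.000712). In siNC, H1f3 had 1.79, 2.26 and 2.06 CPM in siNC+H2O2+FV, against 1.52, 1.58 and 0.733 CPM in siNC+H2O2, with no overlap, but the difference (0.70 ± 0.37, adjusted p = 0.18) did not pass. H1f5 (linker histone H1.5) had 1.67, 2.02 and 1.80 CPM in siprdx1+H2O2+FV, against 0.598, 0.415 and 0.448 CPM in siprdx1+H2O2, and 1.57, 1.82 and 0.688 CPM in siNC+H2O2+FV, against 0.562, 0.687 and 0.474 CPM in siNC+H2O2. Its log2 fold changes were 1.91 ± 0.38 (adjusted p = 0.0006) and 1.23 ± 0.40 (adjusted p = 0.0249). The siNC groups of H1f5 met closely (0.688 and 0.687 CPM), and its call there was lost when replicate 1 or 3 of siNC+H2O2, or 1 or 2 of siNC+H2O2+FV, was left out (adjusted p 0.0646 to 0.147), which leaves 1 gene called higher in siNC. H1f4 passed in neither arm (0.79 ± 0.37, adjusted p = 0.132, in siprdx1, and -0.66 ± 0.36, adjusted p = 0.197, in siNC).

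The 250 bases before the start of the 3 linker histone genes that rose with fluvastatin in siprdx1, and of H4f16, which fell, are shown 5′ to 3′ on the strand of the gene, from RefSeq promoters on GRCm38.p6. They lie at chr13:23738557-23738806 (plus strand, H1f2), chr13:23554782-23555031 (plus, H1f3), chr13:21780626-21780875 (minus, H1f5) and chr6:136804432-136804681 (minus, H4f16). For H1f3 the annotated starts differ. Its window lies inside the GENCODE M21 model (chr13:23553262-23560686) from which its stem-loop was read. Capitals mark each match, on either strand, to the H1 box AAACACA, the CCAAT box CCAAT, the TATA box TATAAA, the octamer ATTTGCAT and the AP-1 site TGANTCA:
H1f2: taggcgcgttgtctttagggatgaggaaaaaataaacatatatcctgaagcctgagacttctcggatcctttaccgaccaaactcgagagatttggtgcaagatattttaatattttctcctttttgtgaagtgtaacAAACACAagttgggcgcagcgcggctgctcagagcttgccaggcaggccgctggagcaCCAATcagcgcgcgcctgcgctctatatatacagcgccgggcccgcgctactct
H1f3: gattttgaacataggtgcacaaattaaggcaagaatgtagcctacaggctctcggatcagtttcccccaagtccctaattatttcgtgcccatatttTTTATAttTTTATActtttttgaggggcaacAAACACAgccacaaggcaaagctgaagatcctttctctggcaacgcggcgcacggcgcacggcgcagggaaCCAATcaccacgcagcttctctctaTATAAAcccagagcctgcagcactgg
H1f5: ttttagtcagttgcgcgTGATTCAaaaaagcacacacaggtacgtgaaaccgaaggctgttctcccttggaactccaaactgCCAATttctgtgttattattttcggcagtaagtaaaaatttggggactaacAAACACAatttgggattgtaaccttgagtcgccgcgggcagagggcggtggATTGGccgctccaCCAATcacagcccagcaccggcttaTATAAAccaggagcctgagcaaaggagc
H4f16: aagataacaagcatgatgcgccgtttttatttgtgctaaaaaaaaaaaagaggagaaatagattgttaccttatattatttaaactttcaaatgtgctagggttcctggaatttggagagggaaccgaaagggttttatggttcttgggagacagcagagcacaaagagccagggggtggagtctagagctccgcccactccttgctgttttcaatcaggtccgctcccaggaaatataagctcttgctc
The H1 box begins 112 bases before the start in H1f2, 122 in H1f3 and 117 in H1f5, and CCAAT 54, 51 and 53 bases before it. The H1 box and CCAAT are elements known from H1 promoters. They are not particular to the genes that rose. H1f4, which passed with fluvastatin in neither arm, has them 115 and 52 bases before its start. H1f6, which was not tested, has them 114 and 65 bases before its start. Promoter windows of 300 bases were available for 52 of the 67 genes (53 windows). Of the 6 H1 windows 83.3% held the H1 box and 100% held CCAAT, where 7.18% and 37.4% of 32851 windows of all genes did. The octamer, known from H2B promoters, was in 53.8% of the 13 H2B and 42.9% of the 14 H2A windows, against 1.74% of all. Motif positions count from the first base of the match to the annotated start. TATAAA was in 56.6% of the 53 and 13.6% of all windows, and the AP-1 site in 5.66% and 7.81%. The window of H4f16 held none of these letter strings, and CCAAT was in 30% of the 10 H4 windows. The AP-1 pattern reads the same on both strands, and none of the matches marked above overlap each other.

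Of the H3 genes, H3c4 had 1.04, 0.734 and 1.43 CPM in siprdx1+H2O2+FV, against 0.0498, 0.374 and 0.326 CPM in siprdx1+H2O2, a log2 fold change of 1.99 ± 0.50 (adjusted p = 0.00477) that rests on 23, 16 and 23 counts against 1, 9 and 8. H3c15 had 2.66, 2.98 and 3.79 CPM in siprdx1+H2O2+FV, against 1.64, 2.03 and 1.63 CPM in siprdx1+H2O2, a log2 fold change of 0.81 ± 0.24 (adjusted p = 0.0143). Both sets of groups were apart. The call of H3c15 was lost without siprdx1+H2O2 replicate 3 (adjusted p = 0.0598) or siprdx1+H2O2+FV replicate 3 (0.0768). In siNC, H3c4 had 0.280, 1.13 and 0.688 CPM in siNC+H2O2+FV, against 0.506, 0.370 and 0.517 CPM in siNC+H2O2, which overlapped (0.60 ± 0.49, adjusted p = 0.414).

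The genes that fell belonged to the H2A, H2B and H4 classes. H4f16 had 1.08, 0.780 and 0.684 CPM in siprdx1+H2O2+FV, against 2.34, 1.41 and 2.97 CPM in siprdx1+H2O2, and 1.01, 0.640 and 0.780 CPM in siNC+H2O2+FV, against 2.19, 1.64 and 3.32 CPM in siNC+H2O2. Its log2 fold changes were -1.38 ± 0.34 (adjusted p = 0.00392) and -1.58 ± 0.34 (adjusted p = 0.00137), and no library of H2O2 plus fluvastatin reached any H2O2 library. H2bc21 had 10.6, 10.3 and 10.7 CPM in siprdx1+H2O2+FV, against 15.7, 14.8 and 13.9 CPM in siprdx1+H2O2, and 8.57, 10.9 and 9.36 CPM in siNC+H2O2+FV, against 14.6, 13.6 and 11.6 CPM in siNC+H2O2, with log2 fold changes of -0.49 ± 0.11 (adjusted p = 0.00141) and -0.46 ± 0.11 (adjusted p = 0.00335). H2bc21 in the fluvastatin cultures thus lay at 8.57 to 10.9 CPM, beside 9.35 to 11.6 CPM in cultures without H2O2. H2bc6 had 2.91, 1.92 and 2.75 CPM in siNC+H2O2+FV, against 4.78, 4.49 and 5.22 CPM in siNC+H2O2, a log2 fold change of -0.94 ± 0.19 (adjusted p = 0.000712). H2ac6 had 0.784, 0.738 and 0.229 CPM in siNC+H2O2+FV, against 1.63, 1.21 and 1.55 CPM in siNC+H2O2, a log2 fold change of -1.35 ± 0.37 (adjusted p = 0.00974) that was lost without siNC+H2O2+FV replicate 3 (-0.94, adjusted p = 0.0666). H2bc4 (0.18 ± 0.08, adjusted p = 0.0902, in siprdx1), H4c9 (-0.16 ± 0.20 and -0.28 ± 0.20) and H4c14 (-0.24 ± 0.33 and -0.62 ± 0.34) passed in neither arm.

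**Figure D3:**
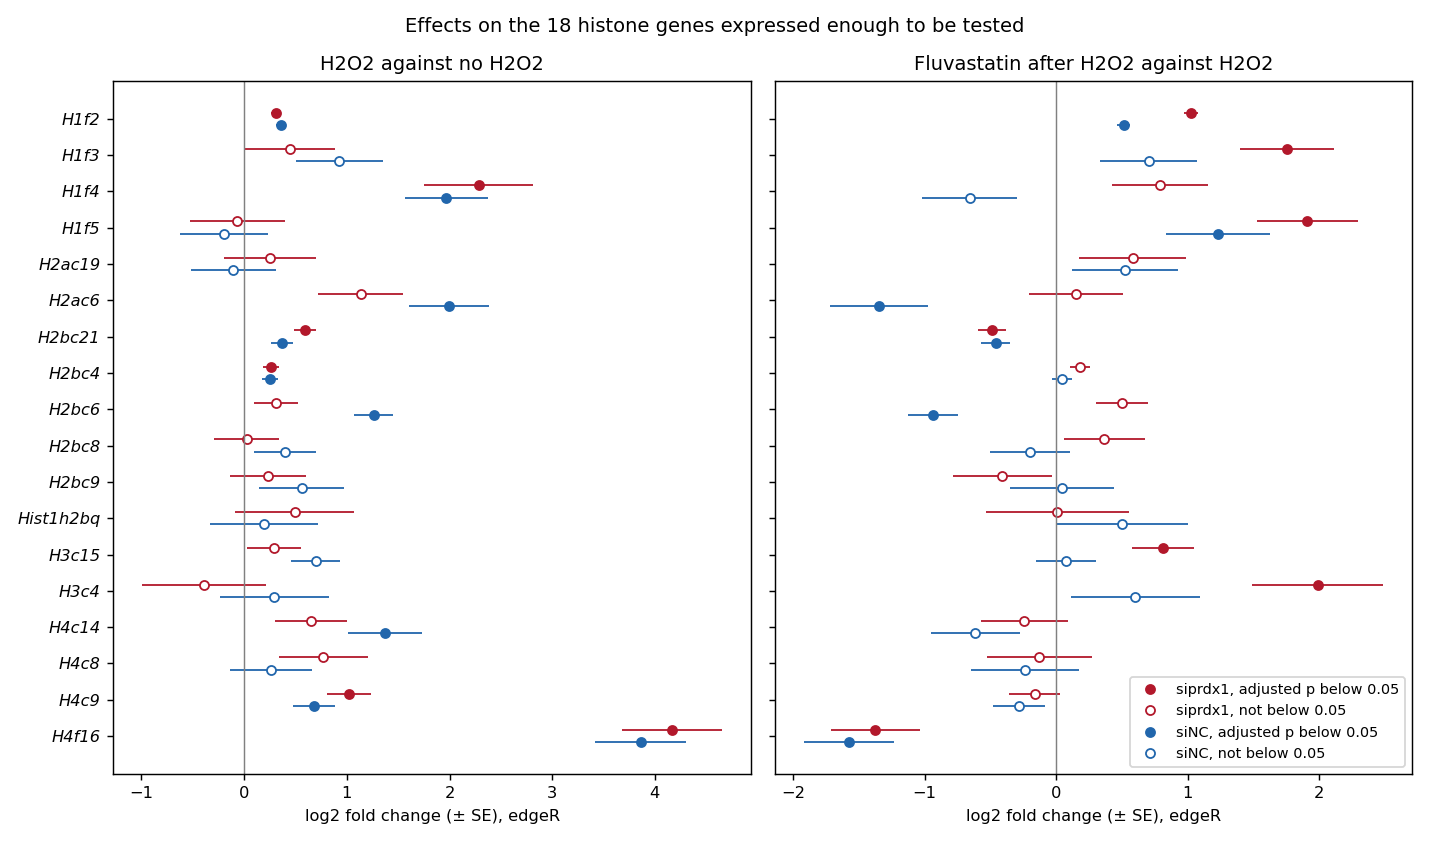
Log2 fold change with SE of the 18 tested histone genes, H2O2 against no H2O2 (left) and fluvastatin after H2O2 against H2O2 (right), in siprdx1 (red) and siNC (blue). Filled points passed at an adjusted p below 0.05: all filled points on the left lie above 0, and on the right the H1 genes and H3 genes that passed lie above 0 and H4f16 and H2bc21 below it.

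Knockdown of Prdx1 alone left no tested histone gene called. In siprdx1 against siNC cultures 0 of 18 passed by edgeR, limma voom or DESeq2, 1 (H1f4, lower) had an unadjusted p below 0.05, and 2.33% of all genes were called (0.657% higher and 1.67% lower). H1f2 differed by -0.03 ± 0.05 (adjusted p = 0.897). After H2O2, 1 of 18 passed, where 2.73% of all genes did (0.901% higher and 1.83% lower): H2bc6 had 2.14, 2.08 and 2.77 CPM in siprdx1+H2O2, against 4.78, 4.49 and 5.22 CPM in siNC+H2O2, a log2 fold change of -1.05 ± 0.19 (adjusted p = 0.0021). After H2O2 and fluvastatin 1 of 18 passed, where 3.97% of all genes did (1.62% higher and 2.35% lower): H1f2 had 219.6, 223 and 227 CPM in siprdx1+H2O2+FV, against 167, 159 and 172 CPM in siNC+H2O2+FV, a log2 fold change of 0.43 ± 0.05 (adjusted p = 6.31e-06). Averaged over the 3 treatments 1 gene passed, H1f2, by 0.10 ± 0.03 (adjusted p = 0.0239), with 9.38% of all genes called (3.93% higher and 5.46% lower). With library size alone, knockdown on average had 977 genes higher and 719 lower, in place of 645 and 897, knockdown alone 163 and 199, in place of 108 and 275, and knockdown after H2O2 and fluvastatin 311 and 302, in place of 266 and 386. The call of H1f2 on average was lost without siNC+H2O2 replicate 2 (0.0543) or siNC+H2O2+FV replicate 2 (0.0586), which leaves 0.

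No difference between arms in the effect of H2O2 passed for the 18 genes: 0 were called for the interaction by edgeR, limma voom or DESeq2, 1 (H2bc6) had an unadjusted p below 0.05, and 0.243% of all genes were called (0.0426% higher and 0.201% lower). The effect of fluvastatin differed for 2 of 18, where 0.651% of all genes were called (0.463% higher and 0.189% lower). For H1f2 the fluvastatin effect was larger in siprdx1 than in siNC by 0.51 ± 0.07 (adjusted p = 0.000228) on the log2 scale. Without any one library this difference was 0.48 to 0.55. For H2bc6 it was larger by 1.44 ± 0.27 (adjusted p = 0.0103), since H2bc6 had 3.69, 3.35 and 2.80 CPM in siprdx1+H2O2+FV, against 2.14, 2.08 and 2.77 CPM in siprdx1+H2O2, which did not pass (0.50 ± 0.20, adjusted p = 0.0716), and fell in siNC as given above. The interaction of H2bc6 was lost without siprdx1+H2O2+FV replicate 1 (1.34, adjusted p = 0.055). For the 16 other genes the difference between arms did not pass and ranged from -0.49 for Hist1h2bq to 1.5 for H2ac6 (adjusted p 0.22 to 0.983).

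Set against untreated cultures, H2O2 plus fluvastatin left 11 of 18 genes higher in siprdx1 and 6 in siNC and 0 lower, where 12.7% and 11.3% of all genes were called higher (12.9% and 11.6% lower, 25.5% and 23% in either direction). With library size alone these were 1153 higher and 4503 lower in siprdx1, in place of 2079 and 2114, and 1170 higher and 4003 lower in siNC, in place of 1862 and 1913. The net effects are the sums of the 2 steps above and use the same libraries. The 6 called in both arms were H1f2, H1f3, H1f4, H2bc4, H3c15 and H4f16. H1f2 rose by 1.34 ± 0.05 (adjusted p = 1.31e-15) in siprdx1 and 0.87 ± 0.05 (adjusted p = 3.5e-12) in siNC, H1f3 by 2.20 ± 0.39 (adjusted p = 0.000136) and 1.63 ± 0.40 (adjusted p = 0.00374), and H4f16 by 2.79 ± 0.56 (adjusted p = 0.00062) and 2.28 ± 0.52 (adjusted p = 0.00195). H1f4 rose by 3.08 ± 0.50 (adjusted p = 5.15e-05) and 1.31 ± 0.43 (adjusted p = 0.0293). The siNC call of H1f4 was lost when replicate 1 or 3 of siNC, or 2 or 3 of siNC+H2O2+FV, was left out (adjusted p 0.062 to 0.14), and that of H3c15 (0.77 ± 0.24) without siNC replicate 3 or siNC+H2O2+FV replicates 1 or 3 (0.0668 to 0.154). With library size alone the siNC call of H2bc4 was lost (0.17 in place of 0.29, adjusted p = 0.0962). In siprdx1 H1f5 (1.85 ± 0.39), H2ac6, H2bc6, H3c4 and H4c9 were called as well. Of these H2ac6 (1.29 ± 0.42) was lost without siprdx1 replicate 2 or siprdx1+H2O2+FV replicate 2 (0.116 and 0.136), and H3c4 (1.60 ± 0.49) without siprdx1 replicates 1 or 2 or siprdx1+H2O2+FV replicate 3 (0.0511 to 0.0874). H2bc8, an H2B gene at 0.498 to 1.37 CPM, passed in no comparison.

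Summed over all 67 genes, histone transcripts made up 318, 326 and 330.4 CPM in siprdx1+H2O2+FV, 190.3, 207 and 206 CPM in siprdx1+H2O2 and 149, 161 and 161 CPM in siprdx1, and 259, 251 and 269 CPM in siNC+H2O2+FV, 216, 210.2 and 224 CPM in siNC+H2O2 and 169.6, 161 and 165 CPM in siNC. In each arm the groups were in this order and did not overlap. Most of the further step with fluvastatin was H1f2: without it the 66 other genes summed to 101 ± 2.95 CPM in siprdx1+H2O2+FV, 91.3 ± 5.70 CPM in siprdx1+H2O2 and 68.7 ± 5.03 CPM in siprdx1 (SD, n = 3 each). In siNC they summed to 93.8 ± 3.22 CPM in siNC+H2O2+FV, 101 ± 2.87 CPM in siNC+H2O2 and 74.6 ± 2.60 CPM in siNC.

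By class, H1 summed to 230.1 ± 4.75 CPM in siprdx1+H2O2+FV, 112 ± 4.29 CPM in siprdx1+H2O2 and 89.8 ± 1.68 CPM in siprdx1, and to 170.4 ± 5.74 CPM in siNC+H2O2+FV, 119.6 ± 4.03 CPM in siNC+H2O2 and 92.3 ± 2.25 CPM in siNC. H4 had 7.00 ± 0.800 CPM in siprdx1+H2O2+FV, 8.38 ± 1.52 CPM in siprdx1+H2O2 and 3.63 ± 0.685 CPM in siprdx1, and 6.13 ± 0.859 CPM in siNC+H2O2+FV, 9.18 ± 0.493 CPM in siNC+H2O2 and 3.90 ± 0.753 CPM in siNC. H2B, which is mostly H2bc4, had 79.1 ± 3.28 CPM in siprdx1+H2O2+FV, 74.8 ± 4.80 CPM in siprdx1+H2O2 and 60.0 ± 3.94 CPM in siprdx1, and 76.5 ± 3.04 CPM in siNC+H2O2+FV, 80.7 ± 1.16 CPM in siNC+H2O2 and 64.5 ± 2.90 CPM in siNC. In H1 the fluvastatin libraries lay above the H2O2 libraries in both arms. In H4 they lay below them in siNC but overlapped in siprdx1, where 1 fluvastatin library at 7.93 CPM was above 2 H2O2 libraries at 7.38 and 7.64 CPM. In H2B they lay close together: in siprdx1 the groups overlapped and the order of their means turned with library size alone (75.3 CPM with fluvastatin and 76.5 CPM with H2O2 alone). H2A summed to 3.15 ± 0.794 CPM in siprdx1+H2O2+FV, 2.52 ± 0.285 CPM in siprdx1+H2O2 and 1.53 ± 0.476 CPM in siprdx1, and to 2.32 ± 0.305 CPM in siNC+H2O2+FV, 3.05 ± 0.810 CPM in siNC+H2O2 and 2.00 ± 0.139 CPM in siNC. H3 summed to 5.17 ± 0.963 CPM in siprdx1+H2O2+FV, 3.09 ± 0.339 CPM in siprdx1+H2O2 and 2.16 ± 0.357 CPM in siprdx1, and to 4.40 ± 0.880 CPM in siNC+H2O2+FV, 4.13 ± 1.17 CPM in siNC+H2O2 and 2.42 ± 0.0425 CPM in siNC. Fluvastatin and H2O2 libraries overlapped for H2A in both arms and for H3 in siNC, and no difference between classes was tested. The 49 genes too low to test summed to 4.46 ± 0.286 CPM in siprdx1+H2O2+FV, 3.74 ± 0.945 CPM in siprdx1+H2O2 and 2.16 ± 0.598 CPM in siprdx1, and to 3.16 ± 0.389 CPM in siNC+H2O2+FV, 3.97 ± 1.37 CPM in siNC+H2O2 and 1.95 ± 0.484 CPM in siNC. Over these 49 the H2O2 libraries lay above the untreated libraries of the same arm, but not in every class: the untested H2B genes had 0.349, 0.540 and 0.692 CPM in siprdx1+H2O2, against 0.620, 0.423 and 0.5 CPM in siprdx1, and the untested H2A genes 0.843, 0.528 and 0.905 CPM in siNC+H2O2, against 0.501, 0.611 and 1.10 CPM in siNC. Among the tested genes H1f5, H2ac19, H2bc8, H2bc9, H3c4 and Hist1h2bq overlapped between H2O2 and untreated libraries in both arms.

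**Figure D4:**
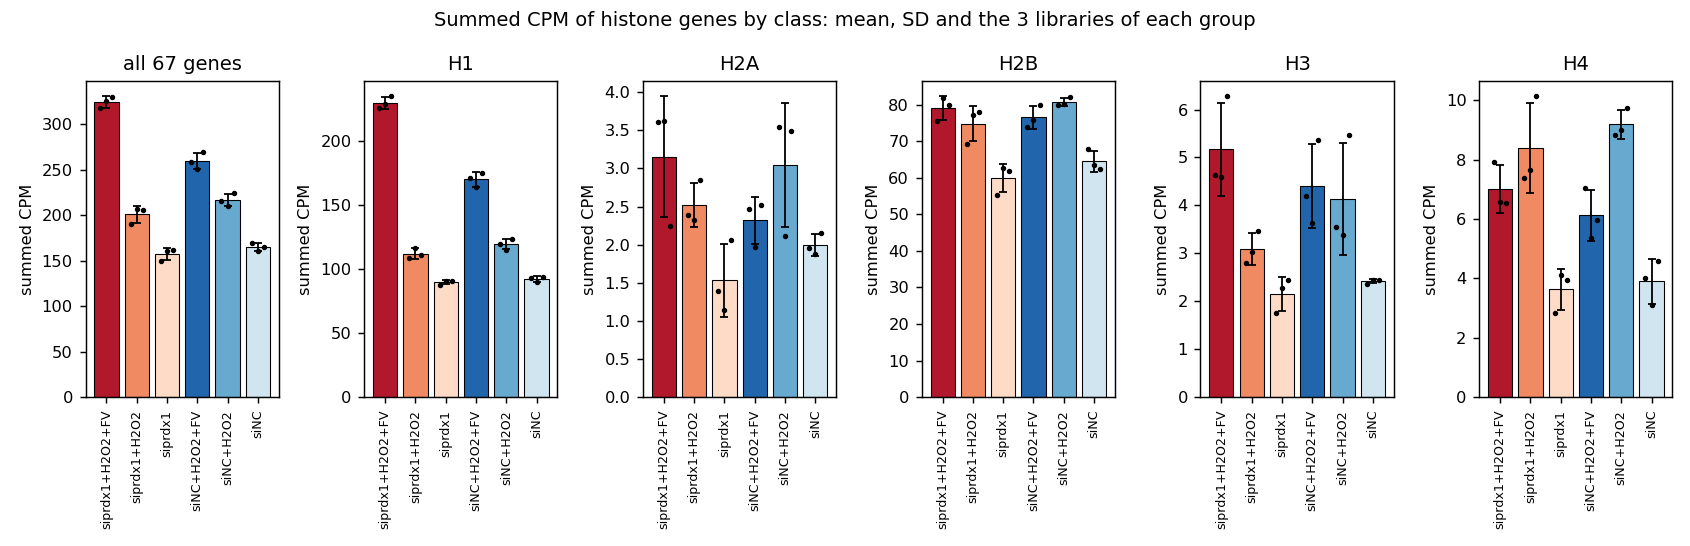
Summed CPM of all 67 histone genes and of each class (each panel on its own axis from 0): bars are group means, error bars SD and points the 3 libraries, groups running from siprdx1+H2O2+FV to siNC. H1 is highest in siprdx1+H2O2+FV (230.1 CPM on average) and the H4 mean is 8.38 CPM in siprdx1+H2O2, whose libraries overlap those with fluvastatin, and 9.18 CPM in siNC+H2O2.

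Other RNAs that lack a poly(A) tail were also counted. Small noncoding RNA genes took 0.00308% to 0.00314% of counts in siprdx1+H2O2 and 0.00304% to 0.00350% in siNC+H2O2, below the 0.00422% to 0.00451% in siprdx1 and 0.00385% to 0.00413% in siNC. In the fluvastatin libraries they took 0.00418% to 0.00472% in siprdx1+H2O2+FV and 0.00410% to 0.00476% in siNC+H2O2+FV. Of 27 listed small RNA genes without a poly(A) tail, only 2 were tested and 0 passed in the comparisons of H2O2 and fluvastatin. Their summed level was 1.56 to 2.48 CPM in siprdx1+H2O2+FV, 1.71 to 2.08 CPM in siprdx1+H2O2 and 1.18 to 1.65 CPM in siprdx1, and 2.02 to 5.76 CPM in siNC+H2O2+FV, 1.64 to 2.92 CPM in siNC+H2O2 and 1.27 to 1.56 CPM in siNC. The sum of this list was thus higher in every library with H2O2 alone than in the untreated libraries of the same arm, in the direction of the histone genes that passed. The share of small noncoding RNA genes given above went the other way in both arms. The sum of the list also rests on few counts: 22 of the 27 genes averaged below 0.1 CPM, and 11 had 0 counts. Mitochondrial genes took 0.988% to 1.24% of counts in the H2O2 libraries and 1.29% to 1.46% in those without. The part of RNA quality or selection in the histone values was not tested.

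Genes of DNA replication, whose expression accompanies that of histones in S phase, were called higher with H2O2 about as often as all genes. Of 41 tested S phase genes 1 rose in each arm, Rrm2, a ribonucleotide reductase subunit, by 0.22 ± 0.06 (adjusted p = 0.0146) in siprdx1 and 0.25 ± 0.06 (adjusted p = 0.00658) in siNC, and 0 fell. This is 2.44% in each arm, where 2.48% of all genes in siprdx1 and 2.36% in siNC were called higher. Their summed level was 1378 to 1399 CPM in siprdx1+H2O2, against 1307 to 1347 CPM in siprdx1, and 1476 to 1498 CPM in siNC+H2O2, against 1365 to 1393 CPM in siNC. The H2O2 libraries thus lay above the untreated ones in both arms, and the part of this in the histone values was not tested. Their median log2 fold change was 0.05 in siprdx1 and 0.13 in siNC. Of 20 mitosis genes 0 rose and 3 fell in siprdx1 (Mki67, Cenpf and Cenpe), and 1 rose (Cdk1) and 1 fell (Mki67) in siNC. With fluvastatin, 5 S phase genes rose and 1 fell in siprdx1, where 12.6% of all genes were called higher and 11% lower. In siNC 4 rose and 5 fell, where 13.5% of all genes were called higher and 11.3% lower. The shares of S phase genes higher in siprdx1 and lower in siNC were thus about those of all genes, and the other shares were smaller. Rrm2 (0.36 ± 0.06 and 0.16 ± 0.05), Cdt1 (0.62 ± 0.11 and 0.47 ± 0.11), which licenses replication origins, and Pcna (0.36 ± 0.06 and 0.18 ± 0.06), the replication clamp, rose in both arms. Among those that fell in siNC were Mcm7 (-0.28 ± 0.06) and Rpa2 (-0.40 ± 0.09), parts of the replicative helicase and the single-strand binding complex. Shares of cells in S phase were not measured.

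Replication-independent histones, whose mRNA is as a rule, but not for every gene, polyadenylated and made in all phases, were tested for 11 genes. With H2O2, 3 rose and 0 fell in each arm: H3f3b, which encodes H3.3 (0.34 ± 0.07 in siprdx1 and 0.65 ± 0.07 in siNC), H2ax (0.37 ± 0.09 and 0.48 ± 0.09) and H1f0 (0.18 ± 0.05 and 0.17 ± 0.05). Over all genes, 2.48% in siprdx1 and 2.36% in siNC were called higher with H2O2. With fluvastatin 3 rose in siprdx1 (H3f3b, H1f0 and H1f10) and 1 in siNC (H3f3b), and 0 fell. The shares of all genes called higher were then 12.6% and 13.5%, so the 1 gene in siNC comes to about that share. H3f3b rose by 1.37 ± 0.07 (adjusted p = 3.3e-13) in siprdx1 and 0.76 ± 0.07 (adjusted p = 1.32e-08) in siNC. Its fluvastatin effect was larger in siprdx1 by 0.61 ± 0.10 (adjusted p = 0.00146), and that of the linker histone gene H1f0 by 0.32 ± 0.07 (adjusted p = 0.0183).

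The machinery of histone mRNA was read against the share of all genes called with H2O2, 7.87% in siprdx1 and 6.95% in siNC. For fluvastatin the share of all genes called was 23.6% in siprdx1 and 24.9% in siNC. The lists below were called with fluvastatin about as often, apart from a somewhat larger share of the processing genes in siNC. Genes named below with fluvastatin are examples of those called and do not mark these lists as responding more than all genes. Of 19 tested genes for its transcription and 3′ end processing 0 changed in siprdx1, while in siNC Snrpd3 rose (0.27 ± 0.07) and Pou2f1 fell (-0.29 ± 0.07). With fluvastatin 3 rose and 1 fell in siprdx1, and 4 rose and 3 fell in siNC. Npat, which activates histone genes at the start of S phase (0.50 ± 0.08 in siprdx1 and 0.64 ± 0.08 in siNC), Slbp (0.43 ± 0.08 and 0.32 ± 0.08) and Lsm11 (0.70 ± 0.12 and 0.51 ± 0.13) rose in both arms. Lsm10, the partner of Lsm11 in the U7 particle, fell in both (-0.47 ± 0.10 and -0.59 ± 0.10), and Zfp473, whose human counterpart binds the processing complex, fell in siNC (-1.35 ± 0.27). Of 13 genes of histone mRNA decay 0 changed with H2O2 in siprdx1 and 1 rose in siNC (Lsm1, 0.28 ± 0.08). With fluvastatin 2 rose in siprdx1 and 4 in siNC, and 0 fell, among them the uridylyltransferase gene Tut7 (0.25 ± 0.07 and 0.36 ± 0.07) and the exosome nuclease gene Dis3 (0.30 ± 0.08 and 0.32 ± 0.08). Of 21 histone chaperone genes 1 fell with H2O2 in siprdx1 (Atrx, -0.87 ± 0.11), and 1 rose (Asf1b, 0.29 ± 0.08) and 1 fell (Atrx, -0.43 ± 0.11) in siNC. In siNC 10.5% of the processing genes, 7.69% of the decay genes and 9.52% of the chaperone genes were called with H2O2. Each differs by at most 1 gene from the 6.95% of all genes. With fluvastatin 4 chaperone genes rose and 2 fell in siprdx1 and 3 rose and 3 fell in siNC. Ubn1, a subunit of the H3.3 chaperone HIRA, rose (0.40 ± 0.05 and 0.60 ± 0.05), as did Atrx (0.73 ± 0.11 and 0.51 ± 0.11), while its partner Daxx fell (-0.29 ± 0.08 and -0.45 ± 0.08).

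**Figure D5:**
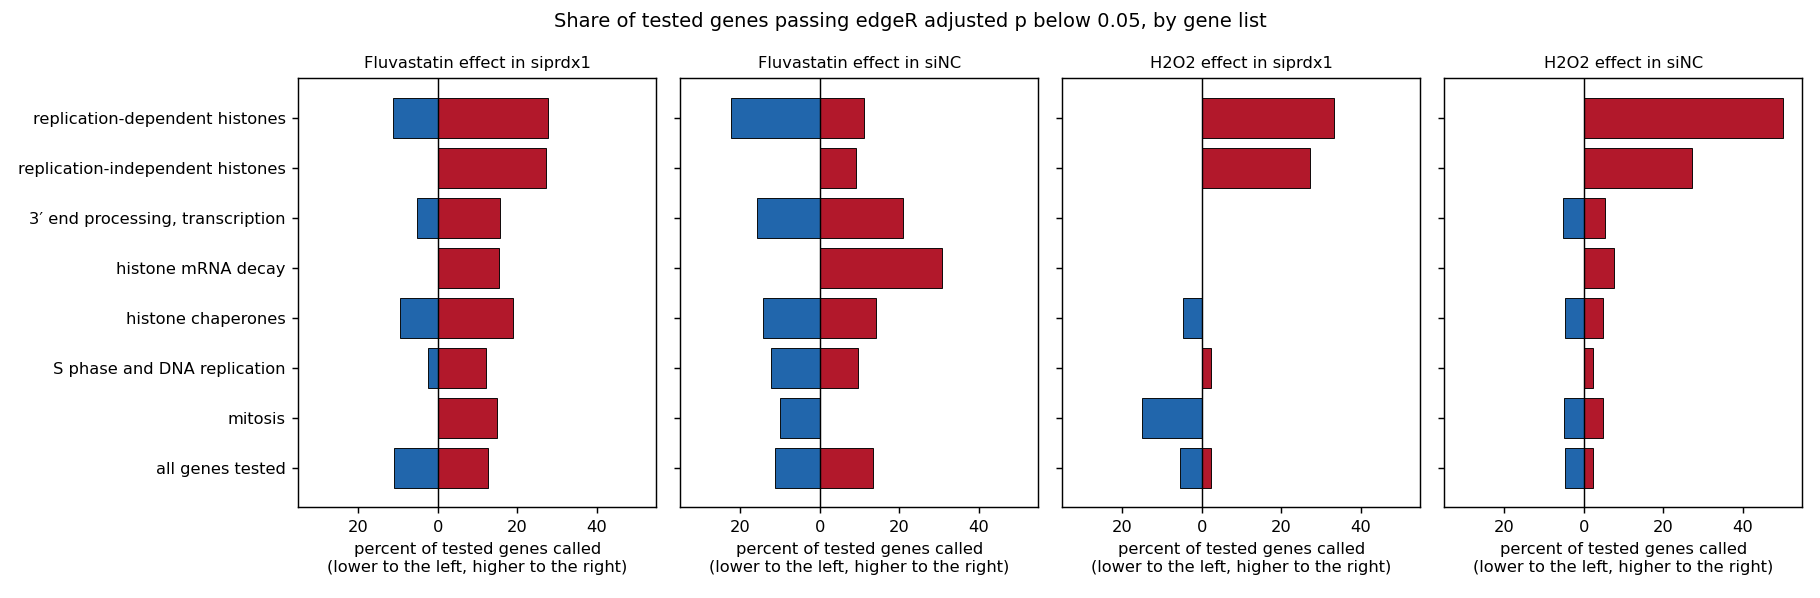
Percent of tested genes called higher (red, right) and lower (blue, left) at an adjusted p below 0.05 in each list and over all genes, for fluvastatin after H2O2 and for H2O2, siprdx1 left of siNC. With H2O2 33.3% of the 18 replication-dependent histone genes were called higher in siprdx1 and 50% in siNC, beside 2.44% of the 41 S phase genes in each arm.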

How the data were processed

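The 18 libraries (6 groups of 3) were made from polyadenylated RNA with a stranded kit, as the labels describe. Raw counts of reads for every gene, not normalized, are what the authors deposited. HISAT2, HTSeq and mm10 are named in the submitters' processing notes, and strand and multi-mapping settings are not given in the sources used here. The 55487 genes were matched by ID to GENCODE M21, where 55227 were found. Genes were filtered with filterByExpr, and 16432 were fitted over all 18 libraries with 6 group means (12 residual degrees of freedom) by edgeR 4.0.16's quasi-likelihood test with TMM scaling in R 4.3.3, for 12 contrasts with Benjamini-Hochberg adjustment and a threshold of 0.05. CPM are counts scaled by the library total times its TMM factor. The fit was tested on simulated data. Alternatives were RLE size factors, library size alone, no low-count filter, a filter blind to the groups (mean of at least 0.5 CPM), a replicate block, only the groups compared, limma 3.58.1 voom, DESeq2 1.42.0, a log2 fold change of at least 1, and leaving out each library. No 2 replicates of a group had counts that agree within sampling noise.

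Values are given for histone genes called in at least 1 contrast or with a mean of at least 1 CPM, and up to 4 called genes with the smallest adjusted p are named per other list. The histone genes and all lists were chosen with earlier results of these data known. The labels tie no replicate number to an animal or day, so pairing was only checked in the data. For H2O2 in siNC, deviations of same-numbered libraries correlated by 0.14, 0.14 and 0.12, and the block called the same 9 genes. For H2O2 in siprdx1 they correlated by 0.18, 0.26 and -0.0063. Correlations this weak do not settle whether the libraries of any contrast were paired. Intervals between libraries cover their spread only, and depth limits genes below about 1 CPM, whose values rest on few counts.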

Additional observations from a re-analysis of the deposited data

Results flagged for a closer look

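The effect of fluvastatin after H2O2 differed between the siRNA arms, by a test of the difference itself (edgeR's interaction term, adjusted over all genes), for H1f2 and H2bc6. For H1f2 the log2 effect was larger in siprdx1 than in siNC by 0.51 ± 0.07 (adjusted p = 0.000228), with an effect of 1.03 in siprdx1 and 0.51 in siNC, and all 3 libraries of siprdx1+H2O2+FV lay above all 3 of siNC+H2O2+FV. For H2bc6 it was larger by 1.44 ± 0.27 (adjusted p = 0.0103), with an effect of 0.50 in siprdx1, which did not pass, and -0.94 in siNC. The second value also carries the difference between arms after H2O2 alone, where H2bc6 was lower in siprdx1 (log2 fold change -1.05 ± 0.19), since both contrasts use those libraries.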

How the results depend on the processing

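Of 720 values of single genes under the other settings, 684 kept their direction and their side of the threshold, 34 lost the call, 1 gained it and 1 changed sign; of 558 values with 1 library left out, 512 kept both, 45 lost the call and 1 gained it. These values belong to 81 pairs of gene and comparison, and the pairs that were not called had no call to lose. The share of calls lost is therefore larger than these totals show. The other settings here include the cut at a log2 fold change of at least 1. The sign changed for H1f2 with knockdown alone, which was not called, at a log2 fold change of 0.00091 with library size alone. A log2 fold change of at least 1 was reached by 3 genes higher with H2O2 in siprdx1 and 5 in siNC, 1 gene lower with fluvastatin in siprdx1, 1 higher and 2 lower with it in siNC, 3 higher in the net effect in siNC, 0 with knockdown after fluvastatin, 0 with knockdown on average and 1 in the fluvastatin interaction; this asks for a larger change by construction. With limma voom 1 gene was higher with fluvastatin in siNC (H1f5 was lost, adjusted p = 0.0548). With no low-count filter the net effect in siNC had 10 higher and 1 lower and the average knockdown 0. DESeq2 called 1 in the fluvastatin interaction, since it set no adjusted p for H2bc6 (log2 fold change 1.44). Library size alone ended the siNC H2O2 calls of H2bc21 (adjusted p = 0.0505), H2bc4 and H4c9 and the siprdx1 H2O2 and siNC net calls of H2bc4, and a fit to only the groups compared ended those of H2bc21, H4c14 and H4c9 in siNC and of H1f4 (0.0558) and H2bc4 in siprdx1. The cause was not tested.

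With 1 library left out, the genes called higher numbered 5 to 6 for H2O2 in siprdx1 and 5 to 7 in siNC, 5 to 6 for fluvastatin in siprdx1 and 1 to 2 in siNC (lower 3 to 4), 10 to 12 for the net effect in siprdx1 and 4 to 7 in siNC, 0 to 1 for knockdown on average and 1 to 2 for the fluvastatin interaction. The replicate block ended no call of these genes; it gave 6 higher with fluvastatin in siprdx1, where H2bc6 was gained (log2 0.51, adjusted p = 0.0497), and 7 in the net effect in siNC, and the other counts were as without it. Outside the H2O2 contrast in siNC, 1 or more same-numbered pairs correlated by under 0.1.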
